A study of Mus musculus with 3 samples.

Results

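The transcripts described here are 31 interferon-stimulated genes, taken by symbol from the 19059 genes counted in 3 single-cell libraries of peripheral blood leukocytes from untreated mice. They were chosen by name as genes that type I interferon is known to induce, with earlier results of these data already known. All 31 were found in the matrices. The labels give male mice of 8 weeks (replicate 1), 9 weeks (replicate 2) and 10 weeks (replicate 3), all under the batch 2023, and name no strain, no mutant allele and no agent. Red cells had been lysed, the leukocytes were stained with DAPI and Draq5 and sorted, and transcripts were read with the fixed-RNA chemistry of 10x Genomics, in which probes to each gene are counted as unique molecular identifiers (UMIs). Age and library cannot be told apart, and the labels do not say that the libraries come from separate animals. The p-values below measure how evenly a difference between classes repeats over these 3 samples. Shifts between libraries that all classes share are taken out by the library block and do not enter them.

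Type I interferons are secreted by cells that detect viral nucleic acid and bind a receptor found on nearly all cells. The receptor activates JAK kinases, which lead to assembly of the complex ISGF3, of which STAT2 and IRF9 are parts. ISGF3 binds interferon-stimulated response elements in the promoters of its target genes. Many targets sit at a low level in resting blood cells and their products act on viral RNA, on nucleotides or on the signalling itself, and IRF7 and USP18 feed back on the pathway, the first to amplify interferon production and the second to dampen the receptor.

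The response element is visible in the promoters of members whose levels are followed below. The stretches are RefSeq sequence of GRCm38.p6, read on the gene's strand and ending before the transcription start, and the capitals mark each match to the motif searched, GAAA and GAAA with any 2 bases between them, on either strand (TTTC and TTTC when the motif is on the other strand). In Isg15 (chr4:156200855-156200916, minus strand) 3 matches overlap, and in Ifit1 (chr19:34640765-34640833), Ifit3 (chr19:34583353-34583436) and Ifit3b (chr19:34607749-34607832), all on the plus strand, there are 2 each.
Isg15: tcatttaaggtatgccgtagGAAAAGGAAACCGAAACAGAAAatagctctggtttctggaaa
Ifit1: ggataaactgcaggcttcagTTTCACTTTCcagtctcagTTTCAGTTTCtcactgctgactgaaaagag
Ifit3: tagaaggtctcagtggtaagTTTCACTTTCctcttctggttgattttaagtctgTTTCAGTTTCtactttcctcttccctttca
Ifit3b: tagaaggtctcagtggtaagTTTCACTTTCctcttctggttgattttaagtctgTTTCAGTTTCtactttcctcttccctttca
Rsad2: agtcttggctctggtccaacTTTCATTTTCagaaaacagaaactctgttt

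The stretch of Rsad2 lies at chr12:26456543-26456592 on the minus strand and holds 1 match. The stretches of Ifit3 and Ifit3b are the same 84 letters, which shows how close these neighbouring copies are, and their counts are uncertain where probes could take transcripts of both. Of the 31 members, 25 had a promoter window (250 bases before to 50 after the start) in the table used here, and 15 of these held the motif, beside 3.99% of 27025 genes. Ifit2, Oasl1, Oasl2, Irf7, Irf9, Mov10, Xaf1, Sp100, Cmpk2 and Ifi44 had no match in their windows, which says only that these letters are not in those windows.

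Cells were assigned to B, T, NK, neutrophil, monocyte and dendritic classes by the raw UMI counts of marker lists that contain no member, and the names end in "like" because they rest on transcripts alone. Of 21767 cells after filtering, 21096 were placed in the 6 classes: 9818 B-like, 6307 T-like, 904 NK-like, 2685 neutrophil-like, 1319 monocyte-like and 63 dendritic-like. The libraries held 10337, 4935 and 6495 cells with medians of 3474, 3273 and 3130 UMIs. Median depth was 2662 to 2812 UMIs in neutrophil-like and 6263 to 8144 in monocyte-like cells. Every marker present in the matrices was detected in its own class, and 1 of 8 neutrophil markers was not analysed here. Neutrophil-like cells carried 124.7 to 149.9 UMIs per 10000 of their own markers and at most 4.69 of the monocyte list. The dendritic-like class was the least distinct, at 21.5 to 26.8 for the conventional and 7.58 to 23.9 for the plasmacytoid list, beside 7.40 to 11.6 for the Ly6c-high list and at most 4.67 for the monocyte list. NK-like cells carried up to 4.92 of the Ly6c-high list, beside 171 or more of their own. Of the 63 dendritic-like cells, 41 carried mostly conventional and 8 mostly plasmacytoid markers, and replicate 2 supplied 11 of the 63. Pairs of libraries shared 48 to 101 barcode sequences and no barcode occurred in all 3.

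Levels are given as CPM, UMIs brought to a common library total, divided by the TMM factor that edgeR fits to each class and library, and written as scaled CPM. A level is compared between classes for the same gene only, since the probes of different genes need not count equally well. Of the 31 members, 17 members had their highest mean level in neutrophil-like cells and 10 in monocyte-like cells. T-like cells were highest for Ifit2 and Sp100, B-like cells for Gbp5 and dendritic-like cells for Ifi44, whose mean rested on 3 UMIs. NK-like cells were highest for none. For 14 of the 17 and 8 of the 10 that class was highest in each library, and by plain CPM neutrophil-like cells were highest for 14 members and monocyte-like cells for 12.

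**Figure D1:**
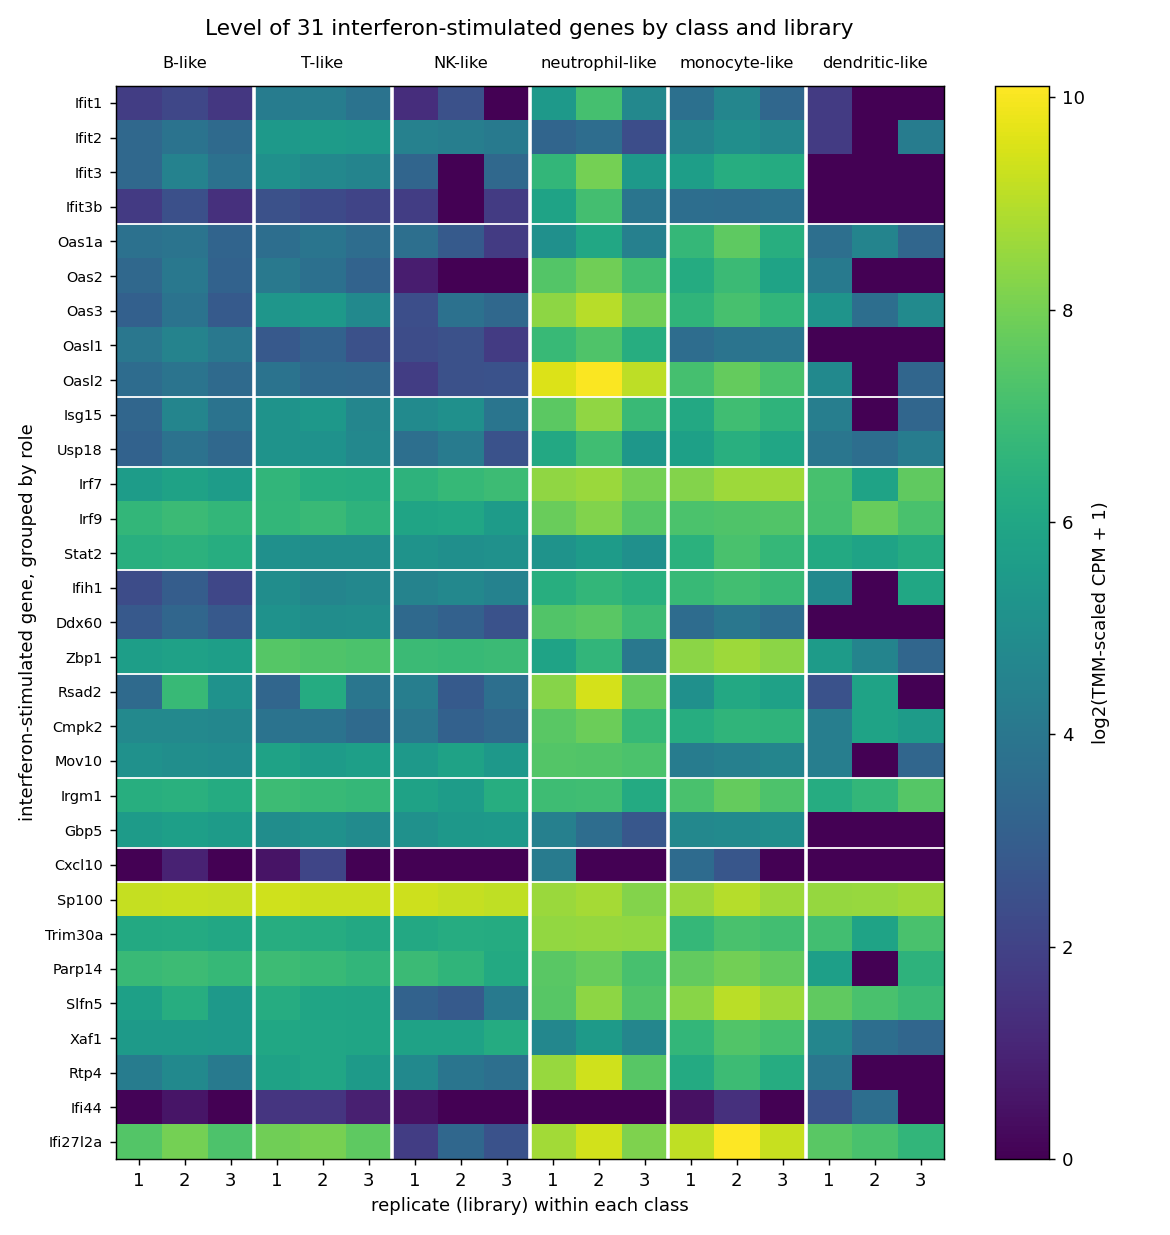
Level of each of the 31 members, as log2(scaled CPM + 1), in the 6 classes (blocks) and the 3 libraries within each class (columns); white lines separate roles. Oasl2 and Rsad2 are brightest in the neutrophil-like block, Zbp1 and Slfn5 in the monocyte-like block, and Ifi27l2a is dark in the NK-like block alone among the lymphocytes.

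Neutrophil-like cells carried more of most members than lymphocytes, taken as the mean of the B-like, T-like and NK-like classes. Of 30 members tested, 23 were higher and 5 lower at an adjusted p under 0.05 (edgeR quasi-likelihood test, library as block), beside 38.6% of 10511 genes higher and 43.3% lower. The members' median log2 fold was 2.66 and that of all genes was -0.22. In monocyte-like cells 23 were also higher and 3 lower than in lymphocytes, beside 35.6% and 38.5% of all genes, with medians of 1.74 for the members and -0.08 for all genes. These 2 comparisons share their lymphocyte samples. Ifi44, a gene of the interferon signature with no settled function, was not tested because its counts were too low, and neutrophil-like cells held 0 UMIs of it.

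Scaling bears on these folds. Plain library totals moved the median log2 fold of all genes against lymphocytes to -1.40 and that of the members to 1.47, with 21 higher and 8 lower and with the share of higher calls among all called genes at 20.7% in place of 47.2%. For monocyte-like cells against lymphocytes plain totals gave 22 higher and 3 lower, with 33.7% in place of 48.1%. The distance of the members' median from that of all genes was 2.88 with TMM and 2.87 with plain totals in the neutrophil-like comparison. Scaling shifts all genes of a library and class alike, so this distance was nearly fixed in advance and does not test the folds.

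**Figure D2:**
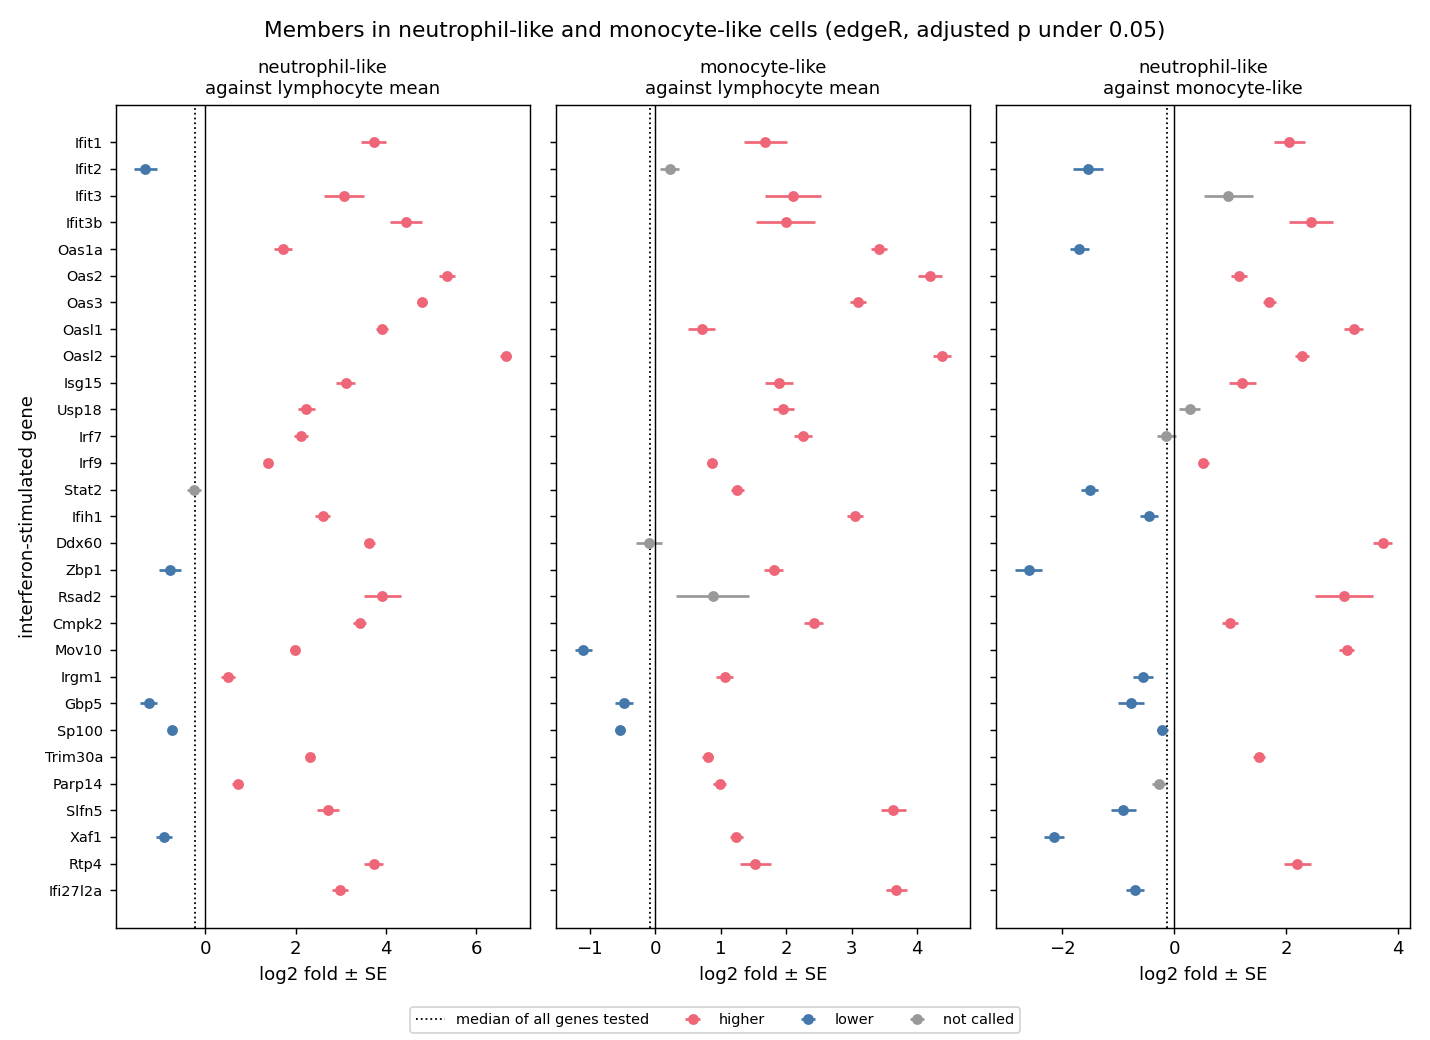
Log2 fold (point) and SE (bar) of 29 members in 3 comparisons, coloured by the call at an adjusted p under 0.05; the dotted line is the median of all genes tested, and Cxcl10, whose SE spans the plot, and Ifi44 are not drawn. Ifit2, Zbp1 and Xaf1 stand left of 0 in neutrophil-like cells against lymphocytes, where most members stand to the right.

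The IFIT proteins bind viral RNA and block its translation, and their genes lie together on chromosome 19. Ifit1 stood at 42.8, 138 and 25.6 scaled CPM in neutrophil-like cells of replicates 1, 2 and 3, at 12.3, 23.9 and 9.43 in monocyte-like cells and at 18.2, 18.2 and 13.2 in T-like cells. The neutrophil-like values lay above those of the other classes in every library. Ifit2 ran the other way, at 8.89, 11.1 and 4.27 in neutrophil-like cells against 43.6, 45.5 and 43.1 in T-like cells, and the classes did not overlap. Ifit1 was higher in neutrophil-like cells than in lymphocytes by a log2 fold of 3.73 ± 0.28 (SE), while Ifit2 was lower by -1.32 ± 0.25 (edgeR adjusted p = 5.8e-06). Ifit3b was higher by 4.44 and Ifit3 by 3.07. Ifit2 is the immediate neighbour of Ifit3 among protein-coding genes in RefSeq. In monocyte-like cells Ifit1, Ifit3 and Ifit3b were higher than in lymphocytes (Ifit3b not without replicate 1), and Ifit2, at 22.6, 31.1 and 23.9, did not pass the test (log2 fold 0.22, edgeR adjusted p = 0.16).

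The OAS enzymes make 2'-5' oligoadenylates that switch on RNase L, and OASL1 lacks that activity. Oasl2 was the member with the highest fold in neutrophil-like cells. It stood at 758, 1054 and 550 scaled CPM there, at 137, 208 and 148 in monocyte-like cells, and between 2.58 and 14.0 in every lymphocyte library. Its log2 fold over lymphocytes was 6.65 ± 0.12 (SE) in neutrophil-like cells (edgeR adjusted p = 2.5e-22) and 4.38 ± 0.14 in monocyte-like cells. Oas2 and Oas3 followed, with log2 folds of 5.35 ± 0.18 and 4.80 ± 0.11 in neutrophil-like cells and 4.19 ± 0.19 and 3.09 ± 0.12 in monocyte-like cells. Oasl1 was higher by 3.92 in neutrophil-like and by 0.71 in monocyte-like cells, the latter not passing with plain totals. Oas1a took the reverse order: its monocyte-like values of 105, 191 and 80.5 lay above the neutrophil-like values of 32.7, 65.3 and 19.9 in each library, and its log2 fold over lymphocytes was 3.42 in the former and 1.72 in the latter. Of the 5 family members, 4 were higher in neutrophil-like than in monocyte-like cells and Oas1a was lower, beside 34.6% of all genes higher and 40.4% lower.

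ISG15 is a ubiquitin-like protein that is coupled to other proteins, and USP18 removes it and also holds back the interferon receptor. Isg15 stood at 189, 342 and 115 scaled CPM in neutrophil-like cells, 67.5, 127 and 93.5 in monocyte-like cells and 9.15, 23.4 and 13.4 in B-like cells. All neutrophil-like and monocyte-like libraries lay above the B-like, T-like and NK-like ones. Usp18 ran from 39.9 to 128 in neutrophil-like cells and from 52.1 to 82.3 in monocyte-like cells, so these 2 classes overlapped, and it was higher than in lymphocytes in both (log2 folds 2.23 and 1.96).

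Among the 3 transcription factors, Irf7, the factor that amplifies interferon production, stood at 341, 386 and 255 scaled CPM in neutrophil-like cells and at 303, 399 and 410 in monocyte-like cells. The 2 classes overlapped (log2 fold -0.14, edgeR adjusted p = 0.48), and each was higher than lymphocytes, by 2.12 and 2.26. Irf9, the DNA-binding part of ISGF3, was higher than in lymphocytes by 1.39 and 0.87. Stat2, its partner, stood at 35.9, 45.8 and 32.7 in neutrophil-like cells, inside the span of 30.6 to 89.2 set by the lymphocyte libraries. Its fold in neutrophil-like cells did not pass the test (log2 fold -0.25 ± 0.15, edgeR adjusted p = 0.12), whereas monocyte-like cells, at 86.9, 146 and 105, were higher by 1.25 ± 0.10.

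The nucleic acid sensors divided between the phagocytes. IFIH1 (MDA5) senses long double-stranded RNA, and Ifih1 was higher than in lymphocytes in both, by 2.60 and 3.05. DDX60 is a helicase that promotes RNA sensing. Ddx60 stood at 164, 182 and 121 scaled CPM in neutrophil-like cells and at 11, 15 and 11.6 in monocyte-like cells, and no library of the one came near the other. Ddx60 was 3.63 ± 0.12 (SE) above lymphocytes in neutrophil-like cells and did not pass the test in monocyte-like cells (log2 fold -0.09, edgeR adjusted p = 0.68). ZBP1 senses Z-form nucleic acid and triggers cell death. Zbp1 showed the opposite, at 57.3, 98.6 and 15.7 in neutrophil-like and 322, 397 and 328 in monocyte-like cells, with T-like cells between them at 174, 157 and 151. It was higher than in lymphocytes in monocyte-like cells by 1.81. In neutrophil-like cells it was lower by -0.79 (edgeR adjusted p = 0.0099), though in 2 of 3 libraries only, and the call was lost without replicate 1.

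Among the enzymes, RSAD2 (viperin) makes an antiviral nucleotide analogue from the product that CMPK2 helps to supply, and their genes are immediate neighbours. MOV10 is an RNA helicase that restricts retroelements. Mov10 was steady between libraries, at 170, 165 and 152 scaled CPM in neutrophil-like cells, 18.2, 20.01 and 23.2 in monocyte-like cells and 29.5 to 33.2 in B-like cells. It was thus higher than in lymphocytes in neutrophil-like cells (log2 fold 1.98 ± 0.10) and lower in monocyte-like cells (-1.10 ± 0.13, edgeR adjusted p = 7.1e-10). Mov10 was the only member tested that was called in opposite directions with neutrophil-like cells high, and Xaf1 and Zbp1 were those called with monocyte-like cells high. Cmpk2 was higher in both classes, by 3.42 and 2.42.

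Rsad2 stood at 311, 696 and 212 scaled CPM in neutrophil-like cells and at 32.8, 67.3 and 53.7 in monocyte-like cells. In B-like cells it stood at 10.3, 112 and 34.5 and in T-like cells at 9.13, 73.8 and 14.6, so that replicate 2 stood above the other libraries and lymphocyte levels overlapped the monocyte-like ones. In both classes the red cell transcripts had the same order of libraries: the 6 erythroid markers summed to 13.9, 301 and 67.4 UMIs per 10000 in B-like cells and 7.24, 213 and 52.2 in T-like cells. On the 511 B-like barcodes with 100 or more erythroid marker UMIs, Rsad2 stood at 398, 591 and 863 plain CPM in replicates 1, 2 and 3, and on the other 9307 at 3.69, 28.1 and 8.17. These 511 barcodes held 80.3% of the Rsad2 UMIs of the class. The same split gave 417, 546 and 573 against 9.23, 28 and 8.61 in T-like cells and 1008, 949 and 1002 against 152, 285 and 92.2 in neutrophil-like cells. The neutrophil-like value of 1008 rested on 19 UMIs over 5 barcodes. On 119 barcodes of no class, red cell transcripts made up 20% or more of the UMIs. There Rsad2 stood at 14232, 3481 and 4875 plain CPM, and Isg15 averaged 977 ± 644 (SD, 3 libraries), with 600 as the lowest. These barcodes numbered 6, 90 and 23 in replicates 1, 2 and 3. The 6 of replicate 1 held 91 UMIs of Rsad2 and 11 of Isg15. Isg15 on B-like barcodes averaged 60.1 with and 13.6 without 100 or more erythroid UMIs, and Oas3 averaged 27.5 and 9.28. Libraries overlapped in neither gene, whereas Irf7 averaged 64.7 and 57.5 and overlapped. On the red cell barcodes of no class Oas3 averaged 270.4 and Irf7 285. In T-like cells 146 barcodes held 55.4% of the Rsad2 UMIs, and this share rested on replicate 2, with 279 UMIs on such barcodes and 102 on the others. Replicate 1 had 33 and 147, and replicate 3 had 46 and 39. The source of these UMIs was not tested.

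**Figure D3:**
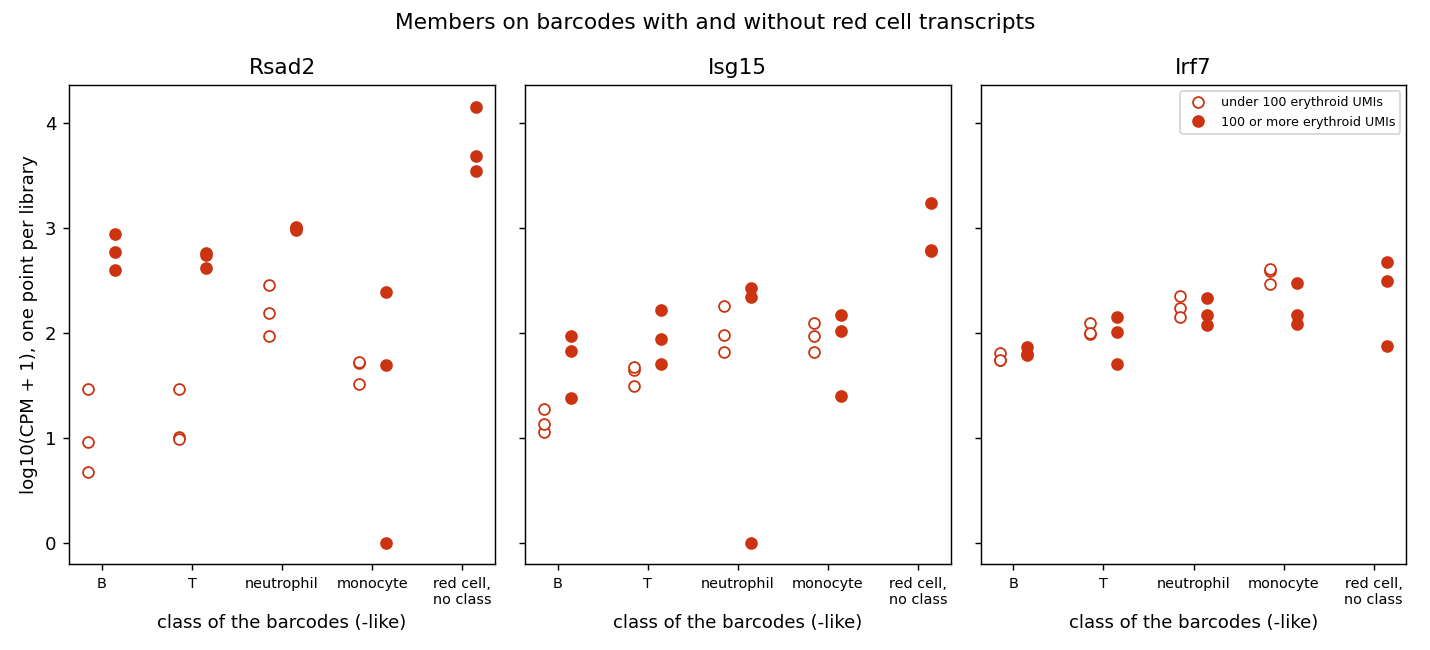
Level of Rsad2, Isg15 and Irf7 as log10(CPM + 1) on barcodes with under 100 (open) and 100 or more (filled) erythroid marker UMIs, by class, and on barcodes of no class rich in red cell transcripts; each point is a library. For Rsad2 the filled B and T points lie above every open point, and the red cell barcodes lie highest; for Irf7 the open and filled points overlap in the B, T and neutrophil classes.

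With those barcodes left out, an alternative chosen after seeing the data, Rsad2 in monocyte-like cells passed the test against lymphocytes, with a log2 fold of 1.94 (edgeR adjusted p = 0.0017) in place of 0.88 (edgeR adjusted p = 0.18). In neutrophil-like cells it was 4.87 in place of 3.92. The counts of members called hardly moved: 23 higher and 5 lower in neutrophil-like and 24 higher and 3 lower in monocyte-like cells. Erythroid markers as a list were 6 of 6 higher in neutrophil-like cells and 6 of 6 lower in monocyte-like cells against lymphocytes. The former rests on the TMM scale and the lymphocyte mean. Without TMM, neutrophil-like cells held 6.85, 251 and 57.1 erythroid UMIs per 10000 in replicates 1, 2 and 3. B-like cells held more in every library (13.9, 301 and 67.4), T-like cells in replicate 1 only, and NK-like cells less in every library (5.52, 94.6 and 20.7). Of 4 eosinophil markers, Epx was at 0 in neutrophil-like cells and the list summed to 0.837 to 1.23 UMIs per 10000 there, above 0.0361 at most in T-like cells, and its part in the members' levels was not tested.

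The remaining members follow no single order. IRGM1 and GBP5 are interferon-induced GTPases that act on pathogen vacuoles and the inflammasome. Irgm1 was higher in both phagocyte classes than in lymphocytes, by 0.50 and 1.06, although the neutrophil-like fold changed sign with plain totals and did not pass without replicate 1. Gbp5 was lower in both, at 20.2, 11.1 and 5.70 scaled CPM in neutrophil-like cells and 25.3, 27.8 and 30.5 in monocyte-like cells against 46.3, 50.6 and 45.5 in B-like cells (log2 folds -1.25 and -0.48). Sp100, a nuclear body protein, was lower in both by -0.75 and -0.53. Trim30a, which restrains Toll-like receptor signalling, stood at 351, 361 and 349 in neutrophil-like cells, nearly the same in each library, and at 106, 147 and 131 in monocyte-like cells. Rtp4, a chaperone that also restricts viruses, stood at 372, 671 and 179 in neutrophil-like and 70.8, 122 and 74.7 in monocyte-like cells. Parp14, an ADP-ribosyltransferase, was higher than in lymphocytes by 0.71 and 0.99, and its neutrophil-like fold too changed sign with plain totals. Slfn5, a Schlafen family protein, was higher by 2.72 and 3.63, and Xaf1, an antagonist of apoptosis inhibitors, was lower by -0.91 in neutrophil-like cells and higher by 1.24 in monocyte-like cells. Counts of Trim30a and Ifi27l2a are uncertain where probes could also take close paralogs.

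The chemokine Cxcl10, which draws activated T cells, was nearly absent. Neutrophil-like cells held 43 UMIs in 5 cells, all of replicate 1, and 28 of the 43 came from 1 cell. Monocyte-like cells held 67 UMIs in 11 cells, T-like cells 26 in 5 cells and B-like cells 10 in 2 cells. NK-like and dendritic-like cells held 0, which allows up to 3 UMIs per class by counting error alone. No fold of Cxcl10 passed the test in any comparison.

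Set directly against each other, neutrophil-like cells were higher than monocyte-like cells for 14 members and lower for 11 of the 30 tested, beside 34.6% of all genes higher and 40.4% lower. The median log2 fold was 0.51 for the members and -0.14 for all genes. The 4 highest were Ddx60 at 3.72 ± 0.16 (SE), Oasl1 at 3.21 ± 0.17, Mov10 at 3.08 ± 0.14 and Rsad2 at 3.04 ± 0.52 (edgeR adjusted p = 2.2e-22, 8.0e-20, 1.2e-22 and 2.5e-04). The 4 lowest were Zbp1 at -2.60 ± 0.25, Xaf1 at -2.15 ± 0.18, Oas1a at -1.70 ± 0.17 and Ifit2 at -1.54 ± 0.26 (edgeR adjusted p = 1.1e-06, 2.8e-12, 2.0e-10 and 1.7e-06). All 25 moved the same way in each library. With plain totals the count became 10 higher and 15 lower, Irf9 changed sign, Isg15, Oas2 and Cmpk2 no longer passed, and the share of higher calls among all genes fell from 46.2% to 20.01%. The median of all genes was then -1.03 and that of the members -0.39. Their distance, 0.64 beside 0.65 with TMM, is one that scaling can hardly change. Leaving out 1 library ended the calls of Ifih1 (replicate 1), Irgm1 (replicate 2), Slfn5 (replicate 3) and Sp100 (replicate 2 or 3). Erythroid markers were higher in neutrophil-like cells for 6 of 6 (median log2 fold 2.79), platelet markers for 5 of 5 tested (2.27) and eosinophil markers for 2 of 2 tested (6.27), and their part in the members' folds was not tested. With barcodes of 100 or more erythroid UMIs left out, 14 members were higher and 11 lower, and the log2 fold of Rsad2 was 2.92. The 8 members with the highest and lowest folds kept their direction and call under every alternative run.

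Monocytes divide into Ly6c-high cells, which enter inflamed tissue, and Ly6c-low cells, which patrol vessel walls. Replicates 1, 2 and 3 held 341, 147 and 114 Ly6c-high-like and 471, 79 and 112 Ly6c-low-like cells. The monocyte-like class of the other comparisons thus blends the 2 in unlike parts. The Ly6c-high-like class (602 cells) was called different from the Ly6c-low-like class (662 cells) for 27 of 29 members tested. In the Ly6c-high-like class 26 were higher, beside 22.1% of 8347 genes, and Zbp1 was lower, beside 20.1%. The members' median log2 fold was 1.33 and that of all genes -0.0043. Usp18 stood at 84.4, 105 and 94.0 scaled CPM in Ly6c-high-like and at 8.83, 12.3 and 1.97 in Ly6c-low-like cells (log2 fold 3.43 ± 0.23, edgeR adjusted p = 9.7e-23). Ifit1 (3.69) and Slfn5 (3.48) belonged to the same top group; the Slfn5 call ended when doublets were kept (edgeR adjusted p = 0.061) or low counts were not filtered (0.095). Oasl1 held 102 UMIs in Ly6c-high-like and 2 in Ly6c-low-like cells, a pooled ratio of 31.7 with an exact 95% interval of 8.57 to 266 for counting error. Zbp1 stood at 255, 333 and 306 against 381, 496 and 337, a log2 fold of -0.47 ± 0.09 that did not pass without replicate 1 (edgeR adjusted p = 0.099). Without replicate 1, Ifih1, Mov10, Gbp5 and Oas3 did not pass either. Rsad2 was not called (log2 fold 1.93, edgeR adjusted p = 0.16) and passed with the red cell barcodes left out, at 2.67. Erythroid markers were lower in the Ly6c-high-like class for 4 of 4 tested, and conventional dendritic markers higher for 4 of 4, and their part in the members' folds was not tested.

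NK-like cells carried the least of the members among lymphocytes. None of 30 was higher than in T-like cells and 12 were lower, beside 22.7% of all genes higher and 27.7% lower, with medians of -0.73 for the members and -0.07 for all genes. By edgeR 0 members were higher at an unadjusted p under 0.05 as well, and DESeq2 called 0 higher and 13 lower. Ifi27l2a, a small mitochondrial protein of the interferon signature, gave the widest gap: 7217 UMIs in the T-like class and 15 in the NK-like class, or 241, 263 and 192 against 2.58, 9.46 and 4.79 scaled CPM. Its log2 fold was -5.82 ± 0.37 (SE, edgeR adjusted p = 7.0e-09), and the 15 UMIs lay in 15 different cells. Oas2 held 432 UMIs in T-like and 2 in NK-like cells, a pooled ratio of 26.5 with an exact 95% interval of 7.29 to 219. Ifit1 was lower by -3.18 and Slfn5 by -2.91, the last not passing without replicate 1 (edgeR adjusted p = 0.058), nor did Oasl2 and Rtp4. Irf7, at 92.9, 109 and 122 in NK-like cells and 98.7, 78.3 and 76.4 in T-like cells, and Stat2, Xaf1, Trim30a and Sp100 did not pass the test, with log2 folds of 0.24, 0.12, -0.08, -0.07 and -0.08 in that order.

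B-like and T-like cells split the list. Of 30 members 4 were higher in B-like cells and 14 lower, beside 31.3% of all genes in each direction, with medians of -0.53 for the members and 0.02 for all genes. The 4 higher were Oasl1 at 1.45 ± 0.15 (SE), Stat2 at 1.35 ± 0.10, Cmpk2 at 1.00 ± 0.15 and Gbp5 at 0.64 ± 0.10 (edgeR adjusted p = 2.5e-11, 9.1e-16, 4.3e-06 and 8.4e-07). Stat2 stood at 81.3, 89.2 and 77.1 scaled CPM in B-like and at 32.9, 30.6 and 31.2 in T-like cells, with no overlap. The 4 lowest were Ifit1 at -2.67 ± 0.26, Ifih1 at -2.55 ± 0.17, Ddx60 at -2.21 ± 0.13 and Oas3 at -2.04 ± 0.13. Ifih1 stood at 4.08, 6.81 and 3.44 against 30.2, 23.1 and 25.1. The call of Ifit3 (-1.03) was lost without replicate 1 or 3. With plain totals 4 were higher and 18 lower, and the share of higher calls among all genes was 38.5% in place of 49.9%. Erythroid markers were higher in B-like cells for 4 of 6 and Rsad2, at a log2 fold of 0.78, did not pass (edgeR adjusted p = 0.18).

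Dendritic-like cells had lower levels than monocyte-like cells for 19 of 30 members and higher levels for none, beside 16.3% of all genes lower and 13.2% higher. None was higher at an unadjusted p under 0.05 by edgeR, and DESeq2 called 0 higher and 21 lower. With plain totals 16 were lower, and the share of higher calls among all genes was 64.0% in place of 44.7%. The members' median log2 fold was -2.22, or -1.89 with genes at 0 UMIs set to their bounds, and that of all genes was -0.05. Ifit3, Ifit3b, Oasl1, Ddx60, Gbp5 and Cxcl10 had 0 UMIs in the 63 cells. Against a floor of 3 counts over the class, Ifit3 was at least 12.2-fold, Gbp5 at least 5.44-fold, Oasl1 at least 2.51-fold and Ddx60 at least 2.44-fold lower than in monocyte-like cells, although Ifit3 did not pass the test (edgeR adjusted p = 0.13). Zbp1 stood at 45.7, 22.8 and 9.10 scaled CPM against 322, 397 and 328 (log2 fold -3.28 ± 0.48, edgeR adjusted p = 2.2e-04). Irf9, at 140, 217 and 146 against 152, 161 and 163, and Trim30a, at 130, 57.0 and 146 against 106, 147 and 131, overlapped between the classes. Without replicate 1, which supplied 40 of the 63 cells, 12 members were lower, and the calls of Zbp1, Oasl1, Ddx60, Slfn5, Cmpk2, Rtp4 and Ifit2 were lost. The 8 plasmacytoid-type cells, whose kind is known for high interferon output, held 17 UMIs of Irf7 in 62679 and the 41 conventional-type cells 47 in 354513; neither group was tested.

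The libraries differed in the members in a way that depended on the class. In neutrophil-like cells 27 of 30 members with 20 or more UMIs were highest in replicate 2, beside 22.6% of 7875 genes. The same held for 26 of 29 members in B-like cells, beside 33.6% of genes, and for 23 of 30 in monocyte-like cells, beside 36.7%. In T-like cells it was 14 of 31, beside 29.7%, and 17 were highest in replicate 1. In NK-like cells it was 7 of 23, beside 31.2%, and in dendritic-like cells 1 of 10, beside 32%. Within monocytes replicate 2 was highest for 21 of 25 members in Ly6c-low-like cells, beside 37.3%, and for 18 of 30 in Ly6c-high-like cells, beside 35.4%. The mix of these 2 classes differed between libraries, and its part in the order of the pooled monocyte-like class was not tested. On barcodes with under 100 erythroid marker UMIs, and in plain CPM, replicate 2 was highest for 28 of 30 members in neutrophil-like, 25 of 29 in B-like and 22 of 30 in monocyte-like cells. Each library stands alone at its age, so this order was not tested.

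Cell-to-cell spread was measured after each cell was thinned to 1000 UMIs, so that all cells had the same depth. Cells shallower than that were left out, 2 to 14 per library in the neutrophil-like class and 23 to 84 in the B-like class. The members' summed UMIs averaged 3.14 ± 1.10 (SD over 3 libraries) per neutrophil-like cell, 3.87 ± 1.07 per monocyte-like, 2.71 ± 0.19 per T-like, 2.03 ± 0.23 per B-like, 1.67 ± 0.05 per NK-like and 1.74 ± 0.16 per dendritic-like cell. Neutrophil-like cells thus had a mean below that of monocyte-like cells, a lower median, 1.33 against 2.67 averaged over libraries, and a long upper tail. In replicates 1, 2 and 3 their means were 2.82, 4.37 and 2.24, beside 3.15, 5.10 and 3.36 in monocyte-like cells. T-like cells had 2.84, 2.79 and 2.49, so neutrophil-like cells lay above T-like cells in replicate 2 only. The Fano factor, the variance divided by the mean and 1 for pure counting noise, was 5.47 to 10.8 for the sum in neutrophil-like cells and 4.58 to 5.50 in monocyte-like cells. It was 2.52 to 3.46 in T-like, 2.12 to 3.34 in B-like, 1.07 to 1.66 in NK-like and 1.14 to 1.77 in dendritic-like cells.

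The variance beyond counting noise, divided by the squared mean, sets classes of different level side by side. This relative excess variance was 2.22 ± 0.21 in neutrophil-like cells, 1.08 ± 0.34 in monocyte-like, 0.78 ± 0.23 in B-like, 0.70 ± 0.14 in T-like, 0.30 ± 0.18 in dendritic-like and 0.16 ± 0.20 in NK-like cells. The lowest neutrophil-like library (2.00) lay above the highest of any other class (1.34, monocyte-like), while B-like and T-like cells overlapped. The NK-like mean rested on replicate 1, at 0.39 beside 0.043 and 0.044, where 2 cells held 10 or more member UMIs. Without replicate 1 it was 0.043, and with the stricter class margin 0.059. With 3 libraries against 3 an exact permutation test cannot go below 0.1, so none is given. The top 5% of neutrophil-like cells held 32.2% to 34.1% of the class's member UMIs, and in NK-like cells they held 15.1% to 17.8%. Within monocytes the value was 0.84 ± 0.23 in Ly6c-high-like and 0.43 ± 0.07 in Ly6c-low-like cells.

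**Figure D4:**
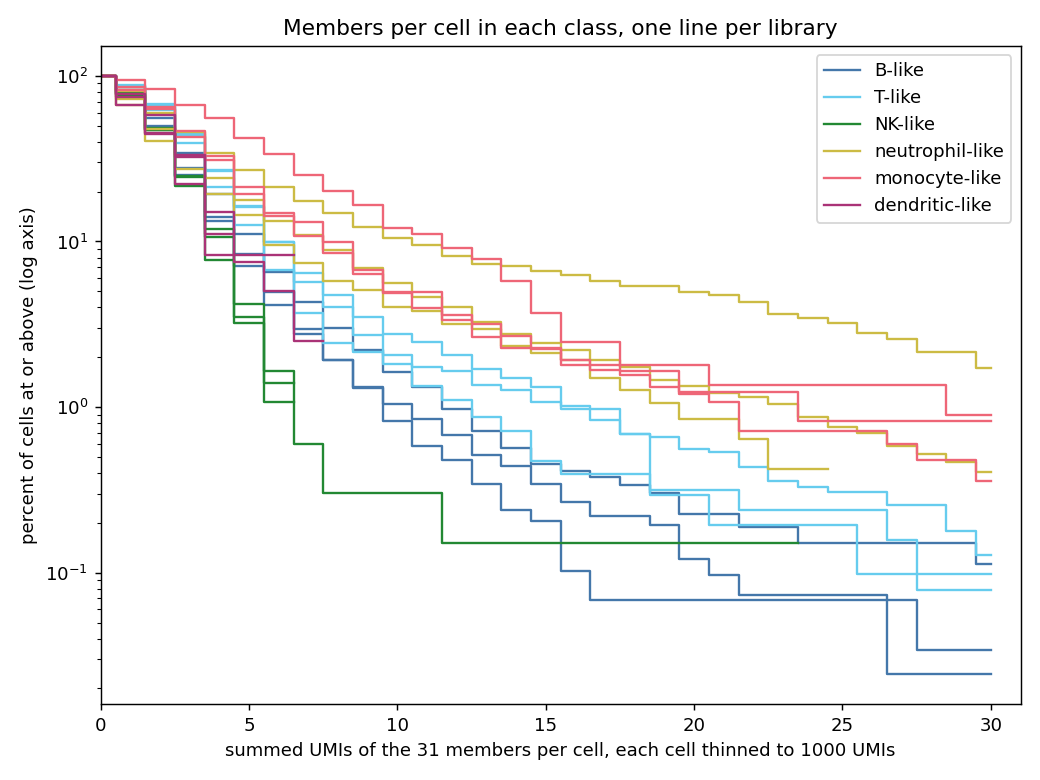
Percent of cells (log axis) with at least the number of summed member UMIs on the x axis, after thinning to 1000 UMIs per cell; each line is a library, coloured by class, and sums above 30 are counted at 30. The NK-like and dendritic-like lines fall fastest, apart from the tail of 1 NK-like library that rests on 2 cells, and the neutrophil-like and monocyte-like lines hold 4.04% to 12.0% of cells at 10 or more.

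The spread of single members was taken next. A Fano factor above 1.5 in every library was met in neutrophil-like cells by 6 of the 16 members with 20 or more thinned UMIs in each library, beside 1.68% of 3102 genes; these were Oasl2, Isg15, Rsad2, Cmpk2, Slfn5 and Ifi27l2a. In T-like cells it was 2 of 22, beside 0.738% of genes, in B-like cells 1 of 26, beside 0.557%, and in monocyte-like cells 1 of 15, beside 1.59%. In NK-like cells it was 0 of 1, beside 1.73%, in Ly6c-high-like cells 1 of 8, beside 1.34%, and in Ly6c-low-like cells 0 of 2, beside 1.92%. Rsad2 had the highest mean Fano factor among lymphocytes, 2.61 ± 0.29 in B-like and 3.31 ± 1.25 in T-like cells, beside the red cell transcripts described above. Ifi27l2a was the most dispersed member in neutrophil-like cells, at 2.92 ± 0.55, with UMIs in 10.4% to 17.8% of thinned cells, ahead of Rsad2 at 2.55 ± 0.20 and Slfn5 at 2.21 ± 0.41. In T-like cells Ifi27l2a had 1.74 ± 0.06, and Ifit3 with 1.62 ± 0.43 came after it. In monocyte-like cells Slfn5 had 1.84 ± 0.51, Oasl2, the member above 1.5 in every library, 1.76 ± 0.19 and Ifi27l2a 1.76 ± 0.32. Sp100, present in 50.5% of thinned NK-like cells, had a Fano factor of 0.975 ± 0.185 there.

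The members were found together in the same cells to a degree that differed by class. The variance of the summed UMIs was 4.42 ± 0.90 times the sum of the single members' variances in neutrophil-like cells and 3.56 ± 0.19 times in monocyte-like cells. It was 2.31 ± 0.38 times in T-like, 2.09 ± 0.36 in B-like and 1.18 ± 0.25 in NK-like cells. Members that vary independently give 1, as do opposite links between members that cancel. Within monocytes the ratio was 3.50 to 4.09 in Ly6c-high-like and 1.31 to 1.97 in Ly6c-low-like cells. Cells with a UMI of 1 member were then compared with cells without it for the sum of the other 30. Neutrophil-like cells with Oasl1 held 4.81 times as many UMIs of the others as cells without it (4.21 to 5.98 over libraries), and for Rsad2, Isg15 and Usp18 the ratios were 4.49, 4.45 and 4.44. At the low end stood Mov10 at 1.41 and Trim30a at 1.95. In neutrophil-like cells the ratio exceeded 2 in every library for 14 of 20 members that could be measured.

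In monocyte-like cells 20 members had a median ratio of 2.01, led by Usp18 at 3.62 and Isg15 at 3.33, with Irf9 lowest at 1.28. That class pools Ly6c-high-like and Ly6c-low-like cells, which differ in most members. Within Ly6c-high-like cells the median was 1.83 over 16 members, and the highest 2.42. Within Ly6c-low-like cells the median was 1.21 over 6 members, and the highest 1.44. T-like cells reached 3.76 for Ifit1 and B-like cells 4.36 for Ifit3, with medians of 1.76 and 1.99 over 27 members each. The 3 NK-like members with enough UMIs, Zbp1, Irf7 and Sp100, had 1.04, 1.05 and 1.07. Gbp5 and Stat2 in B-like cells, both among the members higher there than in T-like cells, had ratios of only 1.18 and 1.20. These ratios are descriptions and were not tested, since the cells of a library are not replicates.

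**Figure D5:**
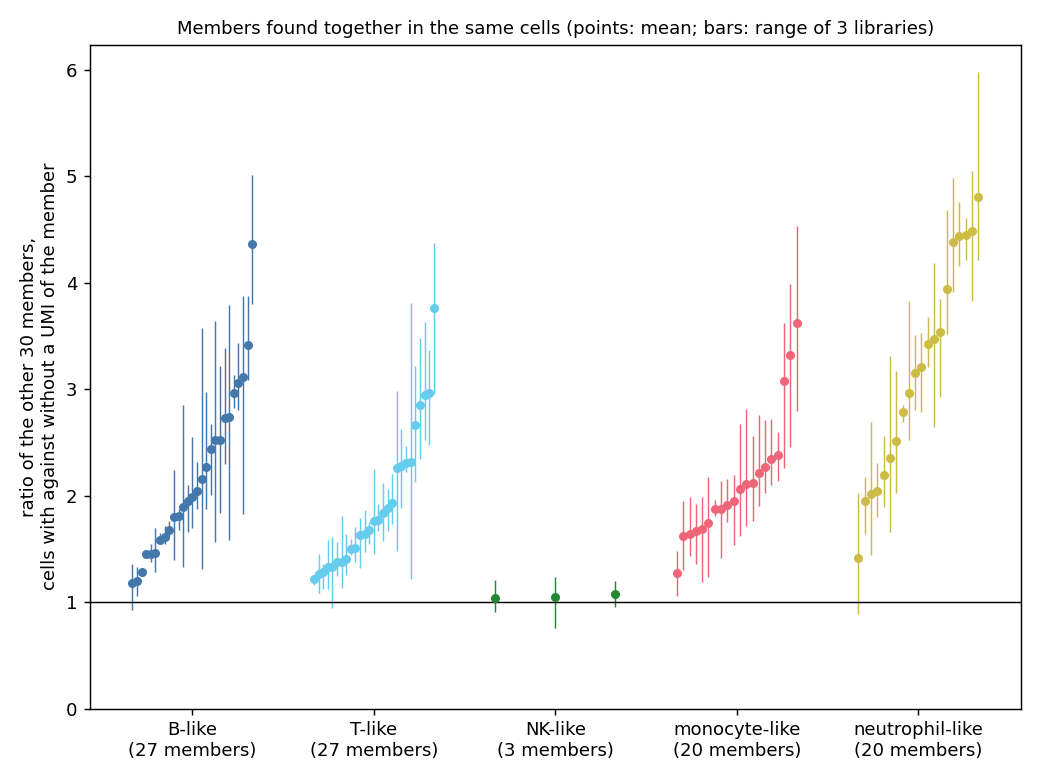
For each member, the ratio of the other 30 members' summed UMIs in cells with against cells without a UMI of that member, after thinning; points are means and bars the range over 3 libraries, ordered within each class. The neutrophil-like points reach 4.81 and the 3 NK-like points stay near 1.

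Cells with 10 or more thinned member UMIs made up 4.04% to 10.5% of neutrophil-like, 4.92% to 12.0% of monocyte-like, 1.82% to 2.75% of T-like and 0.821% to 1.62% of B-like cells. Within monocytes such cells made up 8.93% to 15.8% of Ly6c-high-like and 0.214% to 2.60% of Ly6c-low-like cells. In the NK-like class there were 2 such cells in 1 library, and in the dendritic-like class 0. In T-like cells these 21 to 108 cells per library carried 0.188 to 0.413 neutrophil marker UMIs per 10000 on average, beside 0.307 to 0.397 in the rest of the class. Their monocyte markers averaged 0 to 0.268 beside 0.130 to 0.150. The medians of both lists were 0 in each group of cells. Erythroid markers averaged 6.60, 298 and 188 UMIs per 10000 in the high T-like cells of replicates 1, 2 and 3, beside 6.55, 207 and 49.7 in the rest. In high B-like cells they averaged 0.634, 601 and 138, beside 11.1, 275 and 58.7. These means were thus higher in the high cells of replicates 2 and 3 in both classes. The medians lay closer, at 150 beside 118 and 21.9 beside 21.3 in T-like cells of replicates 2 and 3. In B-like cells they were 140 beside 123 and 16.3 beside 14.9. The part of the erythroid markers in the members' sums was not tested. The 2 high NK-like cells carried 23.2 neutrophil marker UMIs per 10000, beside 0.301 in the rest of that library's class. High neutrophil-like cells averaged 103, 125 and 115 neutrophil marker UMIs per 10000 in replicates 1, 2 and 3, beside 124, 145 and 123 in the rest. High Ly6c-high-like cells averaged 97.3, 93.9 and 76.8 monocyte marker UMIs per 10000, beside 114, 112 and 107.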

How the data were processed

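Per the labels, the authors profiled peripheral blood leukocytes of untreated mice in 3 libraries, and per the submitters' processing notes they used Cell Ranger 7.1.0. Genome build and probe set: not given in the sources used here. Deposited matrices hold UMI counts per gene and barcode, with other files for gene names and barcodes, and no column was left unused. The members and all gene lists were chosen with earlier results of these data known.

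Barcodes with under 200 genes and Scrublet doublets (2.08% to 6.06% per library, scanpy 1.11.5) were removed. A cell took the class with the highest raw marker UMI sum if at least 2 markers were seen, with the dendritic lists added together. Erythroid, plasma cell, eosinophil, Ly6c-high and Ly6c-low lists took no part in this call. The sum had to exceed the platelet sum and be at least 2 times that of each other class and of the basophil list. That ratio was set after seeing marker counts. Of 73 markers 72 were found, and of 115 genes of further interferon lists 107; the others were not analysed here.

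Counts were summed per library and class and tested with edgeR 4.0.16 in R 4.3.3 (TMM, filterByExpr, robust quasi-likelihood fit, Benjamini-Hochberg adjustment over all genes tested, threshold 0.05). Library was a block, because all classes of a library come from the same sample. The model was also run on simulated data in which few genes differed between classes, so that run does not test the scaling. Ratios of low counts have exact 95% intervals that cover counting error only, and a count of 0 was set to a floor of 3 over the class. Spread was computed on cells thinned to 1000 UMIs with numpy 2.4.6 and scipy 1.17.1. All members are described; test values are given for the 4 highest and 4 lowest called members per comparison that moved alike in all libraries, for the 3 most dispersed members per class, and for members described by role. Alternatives were other scalings, no filter, DESeq2 1.42.0, no block, each library left out, doublets kept, a stricter class margin, platelet-bearing barcodes left out, thinning to 2000 UMIs and, chosen after seeing the data, barcodes with 100 or more erythroid UMIs left out and each library left out of the spread.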

Additional observations from a re-analysis of the deposited data

How the results depend on the processing

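Under the alternatives run, 204 of 208 recomputed counts and spread values stayed within the limits set for them. Of 524 values of named members, 517 kept direction and call, the other 7 keeping direction only. The limits were 1 SD over libraries for a spread value and a set ratio to the main count for a count. They let a majority turn. For neutrophil-like against monocyte-like cells, 14 higher and 11 lower became 10 and 15 with plain totals, and both counts stayed within the limits. The number of members lower in neutrophil-like cells than in lymphocytes was 8 with plain library totals, beside 5. The number lower in dendritic-like than in monocyte-like cells was 12 to 18 with 1 library left out, beside 19, and the number lower in Ly6c-high-like cells was 0 to 1. The relative excess variance of dendritic-like cells was 0.54 with the stricter class margin, beside 0.30, and that of NK-like cells 0.059, beside 0.16, within 1 SD. Leaving out replicate 1 brought the NK-like value to 0.043. Depth limits the dendritic-like class (9 cells in its smallest thinned library) and the NK-like class, where 3 members had enough UMIs to be followed from cell to cell. The platelet alternative was not run for dendritic-like cells, of which too few were left in replicate 2.

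Without the replicate block, the members higher and lower numbered 14 and 9 for neutrophil-like against monocyte-like, 24 and 5 for neutrophil-like and 24 and 3 for monocyte-like cells against lymphocytes, 0 and 16 for dendritic-like against monocyte-like, 0 and 11 for NK-like against T-like, 4 and 13 for B-like against T-like, and 23 and 1 for Ly6c-high-like against Ly6c-low-like cells. The block changed no call of a member named by the rule of highest and lowest folds. Without it, calls were lost for Sp100 and Ifi27l2a (neutrophil-like against monocyte-like), Isg15, Oas3, Usp18 and Rtp4 (dendritic-like), Rtp4 (NK-like), Ifit3 (B-like) and Ifih1, Oas1a and Ifi27l2a (Ly6c-high-like).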

Other observations

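Further interferon genes, in lists chosen with earlier results of these data known, were counted in the same fits. Of 19 receptor and signalling genes, 15 were higher and 3 lower in neutrophil-like cells than in lymphocytes, beside 38.6% and 43.3% of all genes. Against monocyte-like cells 13 were higher and 5 lower, beside 34.6% and 40.4%. Ifnlr1, the specific chain of the type III interferon receptor, stood at 68.2, 43.1 and 72.6 scaled CPM in neutrophil-like cells and held 0 UMIs in monocyte-like cells. Of 17 nucleic acid sensing genes tested, 13 were higher in B-like than in T-like cells and 2 lower, beside 31.3% of all genes in each direction. Tlr9, the receptor for unmethylated CpG DNA, stood at 78.7, 83.5 and 86.8 in B-like and 0.15, 0.97 and 2.58 in T-like cells (log2 fold 6.67 ± 0.34 SE, edgeR adjusted p = 1.3e-09).

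Of 60 other interferon-stimulated genes tested, 6 were higher and 34 lower in NK-like than in T-like cells, beside 22.7% and 27.7% of all genes. Tgtp1, an interferon-inducible GTPase, held 1 UMI in NK-like and 1031 in T-like cells. Of the 10 interferon genes listed only Ifng, which encodes interferon gamma, was abundant enough to be tested. It stood at 75.2, 83.6 and 67.0 scaled CPM in NK-like cells and 1.62, 1.74 and 1.37 in T-like cells (log2 fold 5.55 ± 0.28 SE, edgeR adjusted p = 7.3e-20), with no overlap. Of 57 other interferon-stimulated genes tested in monocytes, 38 were higher and 8 lower in Ly6c-high-like than in Ly6c-low-like cells, beside 22.1% and 20.1% of all genes.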
